A study of Homo sapiens with 9 samples.

Results

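The genes described here encode the nuclear subunits of the mitochondrial respiratory chain and of ATP synthase, complexes I to V. They were chosen by name from a deposited table of 62703 genes, as the NDUFA, NDUFB, NDUFC, NDUFS and NDUFV genes, SDHA to SDHD, the UQCR genes, CYC1, the COX5 to COX8 genes with a letter suffix, and the ATP5F1, ATP5M and ATP5P genes. Pseudogene names and the NDUFAF assembly factors were left out. They also had to reach a mean of 1 TPM, a unit of transcript abundance that is scaled by transcript length and sums to the same total in every library. The rule gave 83 of the 13443 genes that reached that mean. Of the 83, 78 are subunit genes, 36 of complex I, 4 of complex II, 9 of complex III, 12 of complex IV and 17 of complex V. The other 5 are 2 noncoding RNAs beside complex I genes (NDUFV2-AS1 and NDUFA6-DT), 2 readthrough genes (NDUFC2-KCTD14 and ATP5MF-PTCD1) and the single-exon copy UQCRHL. A further 10 names were under 1 TPM, and 158 names were pseudogenes.

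Messenger RNA was sequenced from cells labelled HepG2, a line derived from a human hepatocellular carcinoma, in 9 libraries. Every culture had been given palmitic acid, a saturated fatty acid, at 750 µM for 24 h. In 3 libraries nothing else was added (the palmitate group), 3 came from cultures then exposed for 12 h to curcumin, a polyphenol from turmeric, at 20 µM, and 3 from cultures that had the same curcumin dose with 5 µM CuCl2 for 12 h. A culture free of palmitic acid, a vehicle control and an added 12 h for the palmitate group are not described in the labels. A difference from that group may therefore include those 12 h. The labels do not call the replicates separate cultures, so p-values measure only how these libraries vary, and that variation may be technical. TPM keeps no record of read number, so the depth behind each value is unknown. The hepatocyte genes expected of the labelled line were nearly absent: 13 of 14 had a mean under 1 TPM, and ALB, TTR, APOB, APOA2, APOC3 and FGB were listed at 0 in all 9 libraries.

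Complexes I to IV pass electrons from NADH and succinate through coenzyme Q and cytochrome c to oxygen, and the proton gradient built by complexes I, III and IV drives ATP synthase, complex V. All subunits of complex II and most of the others are encoded in the nucleus and imported, while the mitochondrial genome (mtDNA) encodes core membrane subunits of complexes I, III, IV and V. The redox centres of complex I lie in its core subunits, complex II is also an enzyme of the tricarboxylic acid cycle, and complex IV (cytochrome c oxidase) holds its copper in mtDNA-encoded subunits.

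The starts of these genes are known for binding sites of NRF1, of ETS-family factors such as GABP, of YY1 and of the estrogen-related receptors. RefSeq promoter sequences (GRCh38.p14, 250 bases before to 50 bases after the start) were found for 63 of the 78 subunit genes and searched on both strands. The NRF1 motif GCGCATGC was in 13 of the 63 (20.6%, against 3.05% of all 35116 promoters of the same length) and the ETS motif CCGGAAG in 19 (30.2% against 10.3%). The YY1 motif AAGATGGC was in 11 (17.5% against 2.89%) and the estrogen-related receptor motif AAGGTCA in 9 (14.3% against 3.92%). The antioxidant response element TGACNNNGC, the motif of NRF2, was in 10 (15.9% against 13.3%). A match to TGACNNNGC can share bases with TGACCTT, the reverse complement of AAGGTCA, and GCCATCTT can share bases with CTTCCGG. A match describes letters in these windows, and binding was not measured. Shown first is SDHB, the only one of the 4 windows below with an NRF1, an ETS, a YY1 and an estrogen-related receptor match, and last NDUFB3, which has none of the 5 motifs and was the only subunit gene past the test with curcumin. Between them stand COX6A1 and UQCRH, whose libraries of the palmitate group were all below those with curcumin. Capitals mark the motif matches, and each window is written 5′ to 3′ on the gene's strand.
SDHB, chr1:17053983-17054282, minus strand: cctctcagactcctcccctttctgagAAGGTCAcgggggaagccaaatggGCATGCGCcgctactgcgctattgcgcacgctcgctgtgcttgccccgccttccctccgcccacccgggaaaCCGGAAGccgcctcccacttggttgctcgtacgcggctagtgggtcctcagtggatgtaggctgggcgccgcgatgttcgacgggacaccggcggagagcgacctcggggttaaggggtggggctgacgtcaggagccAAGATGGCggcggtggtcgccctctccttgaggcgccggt
COX6A1, chr12:120437863-120438162, plus strand, with 2 NRF1 matches and 1 ETS match: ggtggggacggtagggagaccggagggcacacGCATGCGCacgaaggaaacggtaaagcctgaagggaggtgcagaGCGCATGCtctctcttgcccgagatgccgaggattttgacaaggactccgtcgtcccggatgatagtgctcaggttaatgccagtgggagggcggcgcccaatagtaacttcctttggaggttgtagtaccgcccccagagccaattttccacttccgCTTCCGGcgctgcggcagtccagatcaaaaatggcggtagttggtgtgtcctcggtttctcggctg
UQCRH, chr1:46303448-46303747, plus strand, with 1 ETS match: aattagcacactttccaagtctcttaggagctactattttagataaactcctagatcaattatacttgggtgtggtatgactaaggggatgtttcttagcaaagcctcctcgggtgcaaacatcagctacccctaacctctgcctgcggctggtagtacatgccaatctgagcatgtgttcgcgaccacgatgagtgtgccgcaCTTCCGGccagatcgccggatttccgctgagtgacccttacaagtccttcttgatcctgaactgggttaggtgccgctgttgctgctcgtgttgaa
NDUFB3, chr2:201071751-201072050, plus strand: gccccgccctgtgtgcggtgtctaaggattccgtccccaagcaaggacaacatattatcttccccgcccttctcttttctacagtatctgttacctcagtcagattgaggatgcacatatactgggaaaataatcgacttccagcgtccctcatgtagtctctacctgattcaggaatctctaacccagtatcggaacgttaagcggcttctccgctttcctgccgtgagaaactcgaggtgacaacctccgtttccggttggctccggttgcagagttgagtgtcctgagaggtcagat

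The subunit genes were abundant, and their levels spread widely within complexes I, III, IV and V. Their median level was 271 TPM, 65 of 78 were at 100 TPM or more, 20 at 500 TPM or more, and 4 under 50 TPM. Together they held 2.31% to 2.94% of the TPM of a library, against 9.47% to 12.3% for the 13 mtDNA-encoded subunits. The median gene stood at 176 TPM in complex I, 121 TPM in complex II, 270 TPM in complex III, 404 TPM in complex IV and 390.1 TPM in complex V. The 2 noncoding RNAs and UQCRHL were at 1.69 to 2.22 TPM, and the readthrough genes NDUFC2-KCTD14 and ATP5MF-PTCD1 at 38.8 and 5.83 TPM.

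**Figure D1:**
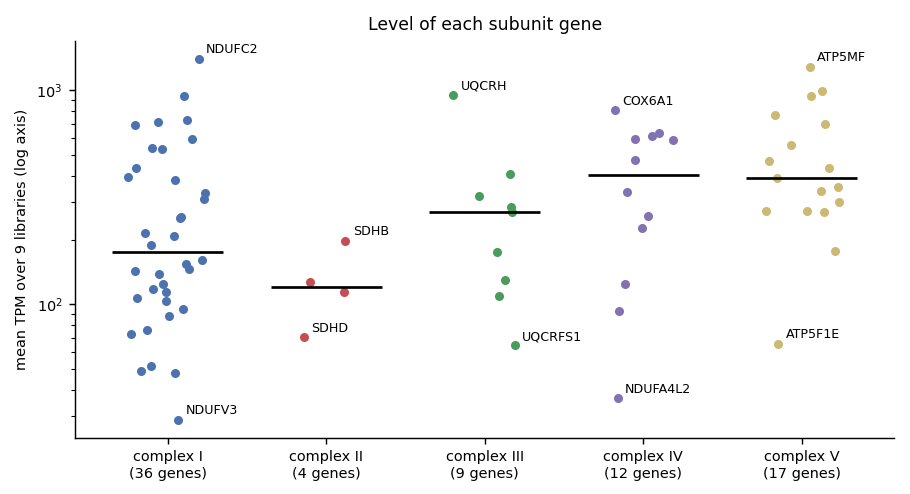
Mean TPM over 9 libraries of each of the 78 subunit genes (points, log axis), by complex. NDUFC2 at 1405 TPM is the highest and NDUFV3 at 28.97 TPM the lowest of complex I, and complex II spans only 70.3 to 198 TPM.

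In complex I the highest gene was NDUFC2 (1405 TPM), an accessory subunit of the membrane arm, followed by NDUFS5 (941 TPM). The lowest was NDUFV3, an accessory subunit of the NADH-binding module, at 28.97 TPM. The 7 core subunit genes ranged from 47.7 TPM for NDUFS1, the largest iron-sulfur subunit, to 256 TPM for NDUFS8. NDUFV1, which binds NADH, had 161 TPM. The core genes summed to 1084 TPM and the 29 accessory genes to 9849 TPM.

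Complex II had the narrowest range of levels. SDHB, its iron-sulfur subunit, had 198 TPM, the flavoprotein SDHA 127 TPM, and the membrane anchors SDHC and SDHD 114 and 70.3 TPM. In complex III the hinge protein UQCRH led with 952 TPM and the Rieske iron-sulfur protein UQCRFS1 was lowest at 64.4 TPM. The core proteins UQCRC1 and UQCRC2 had 320.2 and 130.4 TPM, and cytochrome c1 (CYC1) had 285 TPM. A pseudogene of the Rieske protein, UQCRFS1P1, was listed at 15.0 TPM, so how reads were divided between the copies is uncertain.

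Among the complex IV genes of the name rule, COX6A1 led with 808 TPM, and NDUFA4L2 was lowest at 36.6 TPM. In complex V, ATP5MF, a small subunit of the membrane part, led with 1292 TPM, and ATP5F1E, the epsilon subunit of the rotor stalk, was lowest at 65.6 TPM. The catalytic beta subunit ATP5F1B stood at 993 TPM and the alpha subunit ATP5F1A at 341 TPM. The gamma and delta subunits of the rotor, ATP5F1C and ATP5F1D, had 273 and 177 TPM.

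Where a subunit has tissue isoforms, the widely expressed form was present and the heart and muscle, lung or testis form was at or near 0. COX6A2 and COX7A1, the heart and muscle forms, were listed at 0 in all 9 libraries, as were COX7B2 and COX8C. COX6B2, a testis form, had a mean of 0.0411 TPM against 634 TPM for COX6B1. COX7A2, COX7B and COX8A had 585, 258 and 611 TPM. COX4I1, a complex IV subunit gene outside the name rule, had 849 TPM, and its lung form COX4I2 was listed at 0 throughout. NDUFA4L2, a paralogue known to be induced by hypoxia, was present beside NDUFA4, at a ratio of 0.397 ± 0.0733 (SD, n = 3) in the palmitate group, 0.413 ± 0.0275 with curcumin and 0.374 ± 0.0738 with curcumin and CuCl2. These 3 ratios differ by less than the largest of their SDs. The genes ATP5MC1, ATP5MC2 and ATP5MC3 encode the same mature c subunit of the rotor ring. ATP5MC2 gave 51.6 ± 1.77% of their summed TPM in the palmitate group, 48.1 ± 0.725% with curcumin and 48.5 ± 0.925% with both, while ATP5MC3 gave 21.5 ± 0.775%, 23.1 ± 0.687% and 23.7 ± 0.185%. For both genes the palmitate libraries did not overlap with the treated ones, and these shares were not tested.

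The libraries of the palmitate group differed among themselves more than the treated libraries did. The 78 subunit genes summed to 23144, 25643 and 28767 TPM in the palmitate group, 29353, 26950.2 and 29295 TPM with curcumin and 28913, 27538 and 28072 TPM with curcumin and CuCl2. Replicate 1 of the palmitate group was the lowest library and replicate 3 was within the range of the treated ones. Replicate 1 was the lowest of the 9 libraries for 48 of the 78 subunit genes, against 9.58% of all genes kept. Replicate 3 was the lowest for 10 subunit genes, against 36.5% of all genes kept. The coefficient of variation of a subunit gene had a median of 11.9% in the palmitate group, 5.65% with curcumin and 4.51% with curcumin and CuCl2. Within the palmitate group it ran from 1.39% for SDHA to 24.8% for NDUFB1, which had 354, 538 and 585 TPM.

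That spread went with transcript length, taken as the median length of a gene's coding transcripts. Of the 52 subunit genes under 1000 nt, 50 were higher in replicate 3 than in replicate 1 of the palmitate group, with a median log2 difference of 0.34. Of the 26 genes of 1000 nt or more, 14 were higher, with a median of 0.04. Among all genes kept with a coding transcript the medians were 0.19 for the 1038 genes under 1000 nt and -0.29 for the 10120 longer ones. Across the 78 genes, log2 length and the log2 difference between these libraries gave r = -0.61 and rho = -0.54, a description over genes that share their libraries. The log2 fold changes between treatments followed length less closely (r = -0.39 and rho = -0.48 for curcumin, r = -0.34 and rho = -0.44 for curcumin with CuCl2, each against the palmitate group). Whether length has a part in the differences below was not tested.

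**Figure D2:**
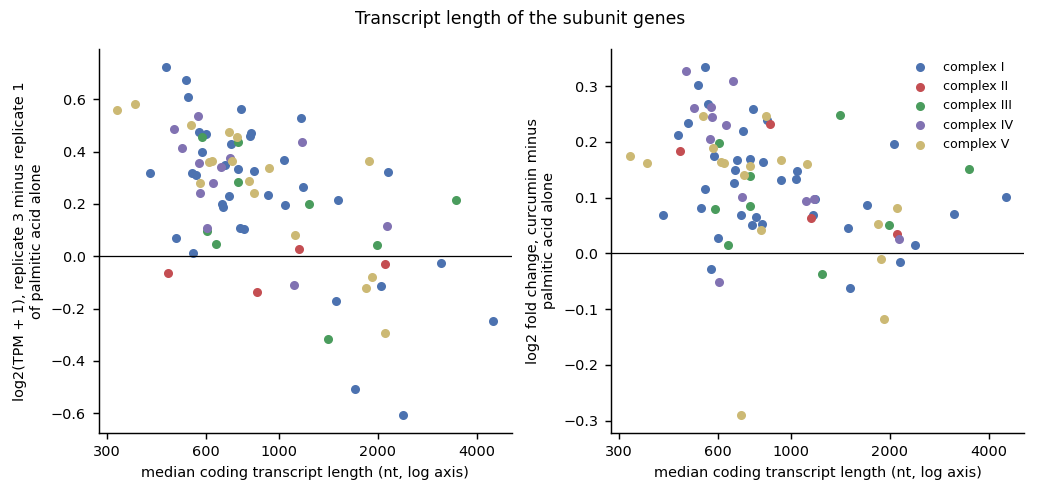
Log2 difference of each subunit gene against the median length of its coding transcripts (log axis): replicate 3 minus replicate 1 of the palmitate group, and curcumin minus the palmitate group. Short transcripts were higher in replicate 3, with a median of 0.34 for genes under 1000 nt and 0.04 for longer ones.

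The curcumin libraries were set against the palmitate group to ask whether respiratory chain transcripts differ after the added curcumin. Most of them had slightly higher values with curcumin, and the test called only NDUFB3. Of the 83 genes, 72 had a positive log2 fold change on the log2(TPM + 1) scale, against 46.3% of all genes kept, and the median was 0.13 (range -0.59 to 0.47) against -0.02 over all genes. The ends of that range are UQCRHL and the readthrough NDUFC2-KCTD14, and the 78 subunit genes ran from -0.29 to 0.33. At a Benjamini-Hochberg adjusted p under 0.05 in limma, 1 of the 83 rose, against 0.759% of all genes kept, and 0 fell, against 1.21% (1.96% in either direction). At an unadjusted p under 0.05, 16 were higher (6.23% of all genes) and 0 lower (1047 of the 13443 genes). Among the 52 subunit genes with transcripts under 1000 nt, 49 were positive (94.2%, median 0.17), against 59.5% of all 1038 genes of that length (median 0.04). In 15 of the 83 the 3 curcumin libraries were all above the 3 of the palmitate group (8.15% of all genes), and in 0 all below (8.61%). The median was 0.07 without replicate 1 of the palmitate group. Without replicate 3 of that group 9 of the 83 genes rose, and the share of all genes called in that fit is not given here.

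Curcumin with CuCl2 was compared with the same 3 libraries of the palmitate group, so the comparisons share them. Here 68 of the 83 genes were positive, against 43.8% of all genes, with a median of 0.12 against -0.03. In limma 0 genes passed an adjusted p of 0.05 in either direction, against 0.543% of all genes higher and 0.9% lower (1.44% together). At an unadjusted p under 0.05, 19 were higher (5.57% of all genes) and 0 lower (1072 of the 13443 genes). Of the 52 short genes 47 were positive (90.4%, median 0.16), against 57.6% of all genes of that length (median 0.03). In 18 of the 83 the libraries with curcumin and CuCl2 were all above those of the palmitate group (8.67% of all genes), and in 1, ATP5F1D, all below (10.3%). The median was 0.07 without replicate 1 of the palmitate group and 0.19 without replicate 3. When replicate 3 was left out 5 genes rose, again with no share of all genes given for that fit.

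Mitochondrial transcripts took 12.98%, 12.5% and 10.1% of the TPM of the palmitate libraries. They took 10.4%, 12.4% and 10.9% in the curcumin libraries, and 10.7%, 11.8% and 11.4% where CuCl2 was added. With that share as a covariate in limma, 14 of the 83 genes were higher with curcumin (6.41% of all genes) and ATP5F1D was lower (4.78%). With curcumin and CuCl2, 15 were higher (5.66%) and ATP5F1D was lower (5.02%). The 5 epithelial genes KRT7, KRT8, KRT18, KRT19 and EPCAM summed to 3314 to 3812 TPM in the palmitate group, 2505 to 2865 TPM with curcumin and 2636 to 2715 TPM with both, where KRT7, KRT8 and KRT18 carry nearly all of the sum. Most of the mitochondrial share comes from the mtDNA-encoded subunits of the same chain (9.47% to 12.3% of TPM). Beyond the covariate fit the part of that share was not examined, and the part of the epithelial genes was not tested. In bulk libraries such as these, fewer cells of a kind and less RNA per cell cannot be told apart.

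**Figure D3:**
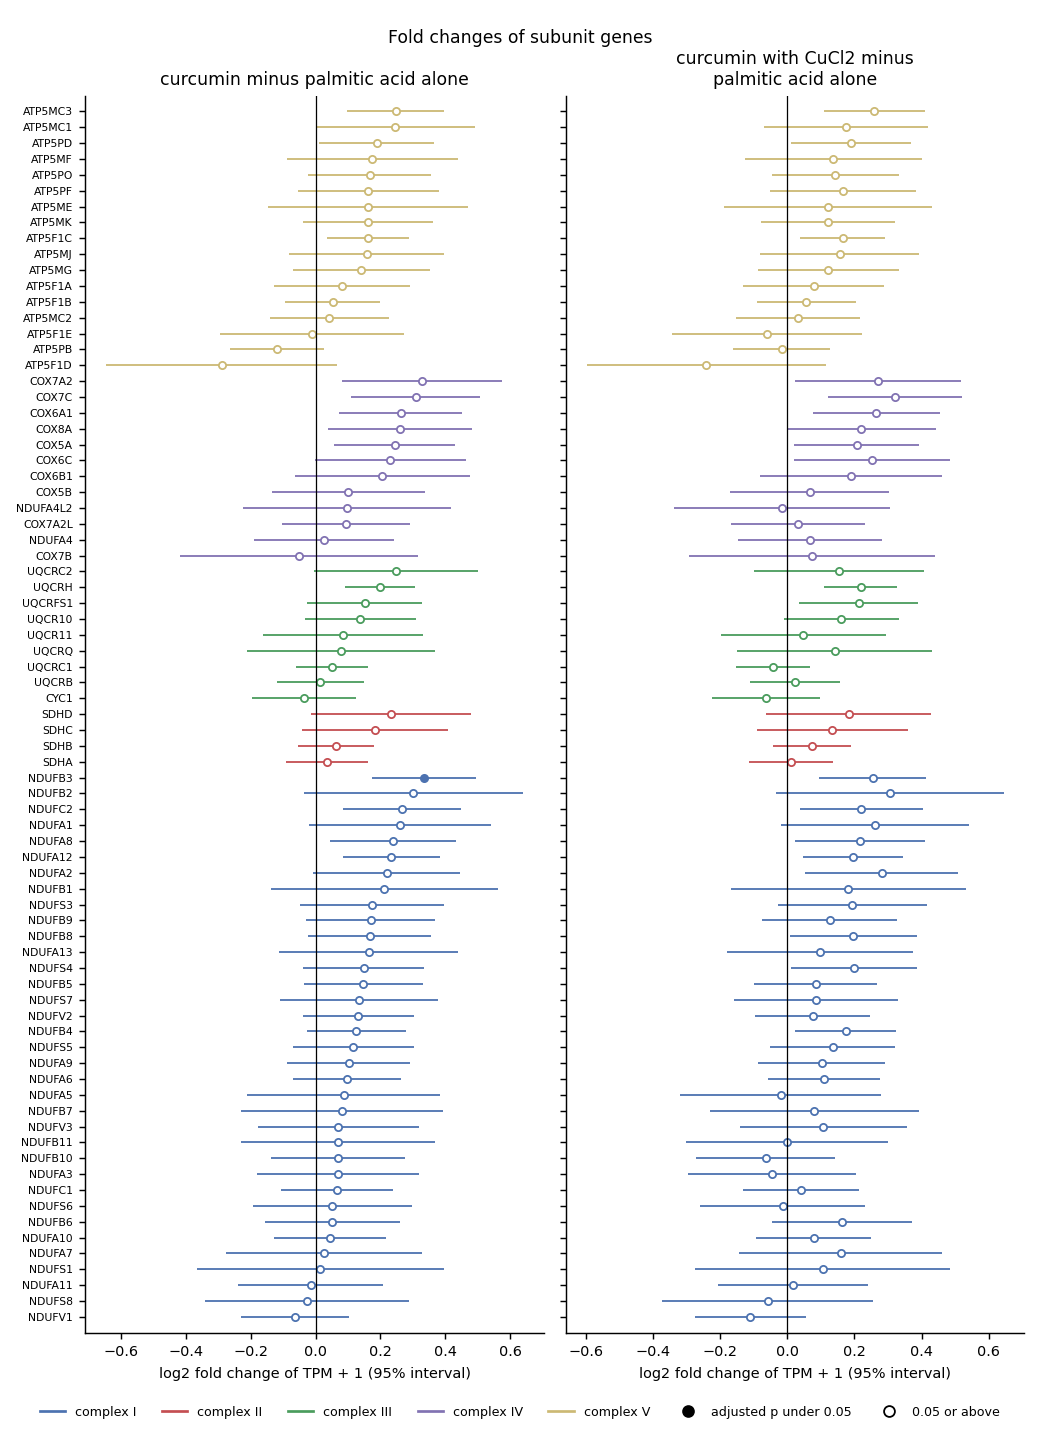
Log2 fold change of TPM + 1 with its 95% interval for 77 of the 78 subunit genes, by complex, for curcumin (left) and curcumin with CuCl2 (right), each against the same 3 libraries of the palmitate group. Filled points passed an adjusted p of 0.05 in limma, which only NDUFB3 did, with curcumin. Most points lie right of 0.

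Complex I, 36 subunit genes, had 33 positive fold changes with curcumin (median 0.12) and 29 with curcumin and CuCl2 (median 0.11). NDUFB3, an accessory subunit of the distal membrane arm (chr2:201071433-201085750 on GRCh38, plus strand), had 157, 181 and 159 TPM in the palmitate group, 207, 207 and 212 TPM with curcumin and 206, 199 and 187 TPM with curcumin and CuCl2. All 6 treated libraries were above the 3 of the palmitate group. It rose by 0.33 on the log2 scale with curcumin (SE 0.07, limma adjusted p = 0.0498), and with curcumin and CuCl2 its log2 fold change was 0.25 (SE 0.07, limma adjusted p = 0.127). The call lies at the threshold: over 19 alternatives its adjusted p ran from 0.015 to 0.191, and 15 of them put it above 0.05.

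NDUFC2, the most abundant gene of the set (chr11:78068304-78080219, minus strand), had 1103, 1290.1 and 1369 TPM in the palmitate group, 1564, 1421 and 1528 TPM with curcumin and 1506, 1416 and 1446 TPM with both. The groups did not overlap with the palmitate group, and the log2 fold changes of 0.27 and 0.22 did not pass (limma adjusted p = 0.155 and 0.254). Its readthrough with KCTD14 had 33.4, 28.3 and 34.2 TPM, then 35.7, 53.5 and 46.5 TPM and 40.5, 45.8 and 30.9 TPM, and the division of reads between the overlapping genes is uncertain. NDUFA12, an accessory subunit, had 181, 194 and 189.6 TPM in the palmitate group, 227, 214 and 222 TPM with curcumin and 228, 220.0 and 199 TPM with both. It too was separate from the palmitate group in both treated groups, at log2 fold changes of 0.23 and 0.20 (limma adjusted p = 0.126 and 0.209). NDUFB2, a membrane arm subunit with log2 fold changes of 0.30 and 0.31, varied most where it was lowest: 213, 262 and 341 TPM in the palmitate group, against 337, 292 and 364 TPM and 349, 328 and 317 TPM, and its groups overlapped.

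NDUFV1, a core subunit, had the lowest estimate of complex I in both comparisons, with 156, 165 and 181 TPM in the palmitate group, 168, 148 and 164 TPM with curcumin and 156, 156 and 152 TPM with both. Its log2 fold changes were -0.06 (95% interval -0.23 to 0.10) and -0.11 (-0.28 to 0.06). NDUFS1 had log2 fold changes of 0.01 and 0.11, with an interval of -0.37 to 0.40 for curcumin, and 54.7, 49.8 and 35.6 TPM in the palmitate group. The noncoding NDUFV2-AS1 and NDUFA6-DT stayed between 0.81 and 3.05 TPM in all libraries, with overlapping groups.

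All 4 genes of complex II had positive estimates, from 0.03 to 0.23 with curcumin and from 0.01 to 0.18 with curcumin and CuCl2. In limma 0 passed, also at an unadjusted p of 0.05 (14% and 13.5% of all genes kept). SDHA was the steadiest of the subunit genes in the palmitate group, at 126, 127 and 124 TPM, then 132, 128 and 126 TPM with curcumin and 122, 129 and 129.6 TPM with both, all overlapping. Its 95% interval for curcumin was -0.09 to 0.16. SDHB (chr1:17018722-17054170, minus strand), whose promoter is printed above, had 191, 189 and 195 TPM, then 199.9, 206 and 196 TPM and 201, 205 and 200.4 TPM. Its treated libraries were all above those of the palmitate group, by 0.06 and 0.07 on the log2 scale (limma adjusted p = 0.683 and 0.609). SDHD had the largest estimates of the complex and overlapping groups, with 61.6, 74.0 and 55.9 TPM in the palmitate group and 70.5, 83.8 and 70.4 TPM with curcumin.

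In complex III, UQCRH had the smallest standard error of its fold change. UQCRH (chr1:46303631-46316776, plus strand) had 832, 868 and 889 TPM in the palmitate group, 990.1, 984 and 995 TPM with curcumin and 1004, 1012 and 998 TPM with curcumin and CuCl2. All 6 treated libraries lay above all 3 others, with log2 fold changes of 0.20 and 0.22 (SE 0.05, limma adjusted p = 0.0801 and 0.0659). UQCRC2 had the largest estimate with curcumin, 0.25 (95% interval -0.01 to 0.50), from 129, 123 and 103 TPM to 134, 164 and 126 TPM, and its groups overlapped. Its partner UQCRC1 stayed between 304 and 332 TPM in all libraries. The UQCRC1 values with curcumin, 330, 330 and 332 TPM, were all above those of the palmitate group, 312, 324 and 322 TPM. Its log2 fold change was 0.05 (limma adjusted p = 0.748), and with curcumin and CuCl2 it overlapped with the palmitate group. UQCRFS1 had 54.5, 59.0 and 63.5 TPM in the palmitate group and 69.1, 64.9 and 71.4 TPM with curcumin and CuCl2, which did not overlap (log2 fold change 0.21, limma adjusted p = 0.26). CYC1 had the lowest estimates of the 9 genes, -0.04 and -0.06. UQCRHL, which is nearly identical to UQCRH, was listed at 1.78, 5.58 and 1.18 TPM, then 0.44, 0.47 and 4.58 TPM and 0.37, 1.41 and 4.14 TPM, values whose reads cannot be told from those of UQCRH with certainty.

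Among the genes of the name rule, complex IV had the largest percentage difference in summed TPM of the 5 complexes. Its sum leaves out COX4I1, at 849 TPM, which had log2 fold changes of 0.08 and 0.08. Its 12 genes summed to 3817, 4263 and 4871 TPM in the palmitate group, 5214, 4694 and 5196 TPM with curcumin and 5219, 4817 and 4939 TPM with both, a mean 16.6% and 15.6% higher. Replicate 3 of the palmitate group lay within the range of the treated libraries. The sums of complexes I, II, III and V were 7.71% to 9.94% higher with curcumin and 6.11% to 7.95% higher with curcumin and CuCl2. These sizes rest in part on replicate 1 of the palmitate group, without which complex IV was 10.2% and 9.30% higher and complex I, first 9.94% and 7.95%, was 3.71% and 1.83% higher. For complex V the curcumin value fell from 8.61% to 3.21%. Without replicate 3 of that group complex IV was 24.6% and 23.6% higher. By gene, 11 of 12 were positive in each comparison, with medians of 0.22 and 0.20. In limma 0 passed, and 5 had an unadjusted p under 0.05 in each comparison (14% and 13.5% of all genes kept).

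**Figure D4:**
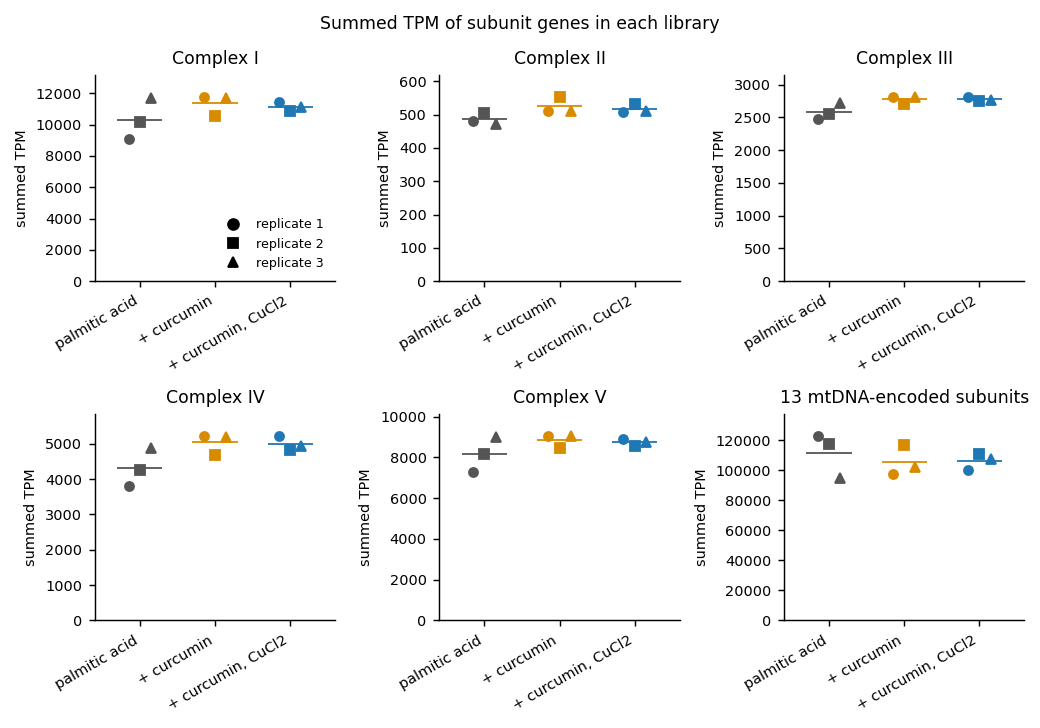
Summed TPM of the subunit genes of each complex, and of the 13 mtDNA-encoded subunits, in each library (symbols for replicates, lines for group means). For complex IV the means are 4317, 5035 and 4992 TPM, while replicate 3 of the palmitate group, at 4871 TPM, lies among the treated libraries.

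COX7C (chr5:86617904-86620962, plus strand), a small nuclear subunit, had 436, 552 and 552 TPM in the palmitate group, 634, 626 and 637 TPM with curcumin and 663, 629 and 621 TPM with curcumin and CuCl2. The treated libraries did not overlap with the others, at log2 fold changes of 0.31 and 0.32 (SE 0.09, limma adjusted p = 0.128 and 0.125). COX7A2 (chr6:75237675-75250323, minus strand), the widely expressed form of subunit VIIa, had 415, 535 and 582 TPM, then 640.5, 618 and 646 TPM and 648, 596 and 587 TPM. Replicate 1 of the palmitate group was far below the rest, and the log2 fold changes were 0.33 and 0.27 (limma adjusted p = 0.198 and 0.306). COX6A1 (chr12:120438090-120440742, plus strand) had 626, 719 and 802 TPM, then 870.0, 816 and 877 TPM and 873, 835 and 858 TPM, again with no overlap (log2 fold changes 0.26 and 0.26, limma adjusted p = 0.179 and 0.181).

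COX5A and COX5B lie on the matrix side of the enzyme. COX5A had 393, 418 and 464 TPM in the palmitate group, 534, 456 and 521 TPM with curcumin and 512, 467 and 489.9 TPM with both (log2 fold changes 0.24 and 0.21). COX5B, the zinc-binding subunit, had log2 fold changes of 0.10 and 0.07, and the difference between these genes was not tested. COX6B1, COX6C and COX8A had 0.21, 0.23 and 0.26 with curcumin, and 0.19, 0.25 and 0.22 with both. COX7B, with 277, 199.6 and 298 TPM in the palmitate group, gave -0.05 with curcumin (95% interval -0.42 to 0.32) and no stable sign. COX7A2L, which joins complexes III and IV, and NDUFA4 had curcumin estimates of 0.09 and 0.03 with overlapping groups.

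Complex V, 17 genes, had 14 positive estimates in each comparison, with medians of 0.16 and 0.12. In limma 0 passed, and 4 and 3 had an unadjusted p under 0.05 (14% and 13.5% of all genes kept). ATP5MC3 (chr2:175176258-175184607, minus strand), a c subunit gene, had 287, 311 and 340.2 TPM in the palmitate group, 379.6, 362 and 370.0 TPM with curcumin and 376, 369 and 377 TPM with curcumin and CuCl2. The treated libraries were all above the others, by 0.25 and 0.26 on the log2 scale (SE 0.07, limma adjusted p = 0.112 and 0.0999). ATP5MC1 and ATP5MC2, which encode the same mature protein, had 0.25 and 0.04 with curcumin and 0.17 and 0.03 with both, in overlapping groups.

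ATP5F1D (chr19:1241746-1244826, plus strand), the delta subunit of the rotor stalk, had the most negative estimate of the 78 subunit genes. It had 173, 187 and 241 TPM in the palmitate group, 185, 126 and 182 TPM with curcumin and 163, 173 and 167 TPM with curcumin and CuCl2. Replicate 3 of the palmitate group stood high and replicate 2 of curcumin low, and only the group with CuCl2 was wholly below the palmitate group, by a margin smaller than the rounding of these values. The log2 fold changes were -0.29 (95% interval -0.65 to 0.07) and -0.24 (-0.60 to 0.11), and over 19 alternatives the first ran from -0.40, with mitochondrial share as a covariate, to -0.11, without replicate 2 of curcumin (-0.15 without replicate 3 of the palmitate group). ATP5F1E, of the same stalk, had -0.01 and -0.06. The genes of the alpha, beta and gamma subunits, ATP5F1A, ATP5F1B and ATP5F1C, had curcumin estimates of 0.08, 0.05 and 0.16. Among these 3, ATP5F1C had separate groups, with 242, 261 and 256 TPM in the palmitate group and 277, 281 and 290.0 TPM with curcumin (limma adjusted p = 0.218). The coupling factor gene ATP5PF had 0.16 and 0.17 in the comparisons with the palmitate group.

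**Figure D5:**
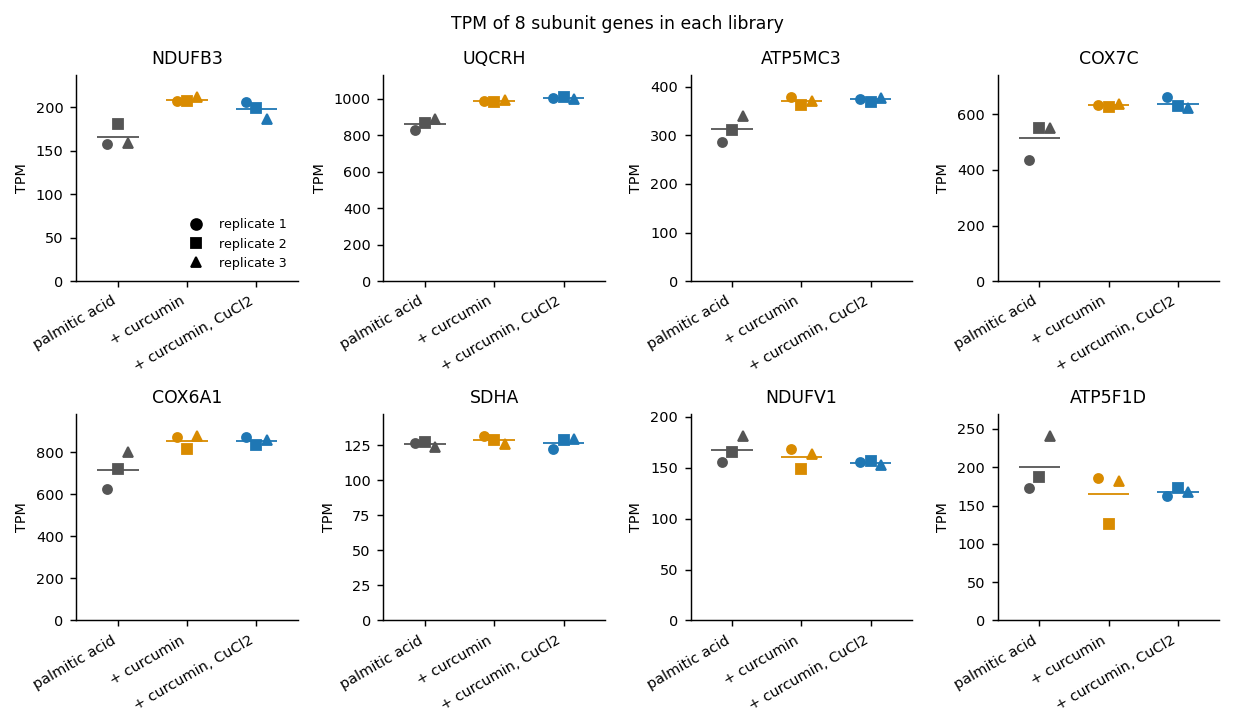
TPM of 8 subunit genes in each library (symbols for replicates, lines for group means). NDUFB3, UQCRH, ATP5MC3, COX7C and COX6A1 have all 6 treated libraries above the 3 of the palmitate group, SDHA and NDUFV1 overlap, and ATP5F1D has its highest value, 241 TPM, in replicate 3 of the palmitate group.

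Curcumin with CuCl2 was compared with curcumin to ask what the copper salt added. No gene of the set passed the test: 37 of 83 estimates were positive (45.6% of all genes), the median was -0.02, and 0 passed in limma at an adjusted p of 0.05 (0% of all genes) or at an unadjusted p of 0.05 (1.6%, of which 0.766% higher). The 95% interval of a gene reached a median of 0.21 to each side of its estimate on the log2 scale. Differences smaller than that were mostly not detectable with these libraries even at an unadjusted p of 0.05. An adjusted p of 0.05 asks for larger ones. Only UQCRH was wholly higher with CuCl2 (2.63% of all genes), and NDUFB3 and UQCRC1 wholly lower (3.61%). Their log2 differences were 0.02, -0.08 and -0.09. The intervals of the abundant complex IV genes COX6A1 (-0.19 to 0.19) and COX7C (-0.19 to 0.21) included 0.

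Copper reaches cytochrome c oxidase through COX17, SCO1, SCO2, COX11 and other mitochondrial proteins. Of 10 copper delivery genes 0 passed in limma in any comparison. At an unadjusted p under 0.05 there were 3 with curcumin (14% of all genes kept) and 1 with curcumin and CuCl2 (13.5%). Their median log2 fold change was 0.06 and 0.01 against the palmitate group and -0.07 between the treated groups. COA6 had the largest estimate, from 181 ± 16.9 TPM (SD, n = 3) to 223 ± 10.1 TPM with curcumin and 205 ± 14.7 TPM with both (0.31 and 0.18, limma adjusted p = 0.116 and 0.394). The chaperone COX17 followed at 0.24 and 0.17, and SCO1 and SCO2 were at -0.10 and 0.07 with curcumin.

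The estimates of the 13 mtDNA-encoded subunits were mostly negative with curcumin. These transcripts summed to 122803, 117616 and 94684 TPM in the palmitate group, 97474, 116494 and 102043 TPM with curcumin and 100260.0, 111066 and 107471 TPM with both, with overlapping groups. Their median log2 fold change was -0.10 with curcumin (2 of 13 positive) and -0.02 with curcumin and CuCl2 (5 of 13). In limma 0 passed, and 1 had an unadjusted p under 0.05 in each comparison (14% and 13.5% of all genes kept). MT-CO3 had the largest estimate, -0.23 and -0.21, from 15958 ± 1316 TPM to 13556 ± 351 and 13775 ± 57.1 TPM (limma adjusted p = 0.122 and 0.173). MT-CO2, which carries a copper centre of complex IV, had 0.08 and 0.12.

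Assembly factors for the complexes were tested beside the subunits. Of 19 complex I factors 0 passed in either comparison with the palmitate group (5 at an unadjusted p under 0.05 in each, 3 higher and 2 lower with curcumin, 4 and 1 with both), with medians of 0.01 and 0.13. Over all genes kept, 14% and 13.5% had an unadjusted p under 0.05 in these comparisons. TMEM126A, with 44.5, 44.2 and 51.5 TPM and then 61.0, 59.0 and 66.2 TPM with curcumin, had separate groups and 0.40 (limma adjusted p = 0.0725). FOXRED1 lay wholly lower, with 52.8, 51.9 and 52.0 TPM in the palmitate group, 44.6, 44.2 and 44.8 TPM with curcumin and 45.4, 48.4 and 47.0 TPM with both (-0.23 and -0.15, limma adjusted p = 0.119 and 0.315). Of 19 complex IV factors other than copper carriers 0 passed (6 and 5 unadjusted, all higher), with medians of 0.14 and 0.13, led by COA3 at 0.42 with curcumin and PET117 at 0.49 with both. Of 10 factors for complexes II and III, and 5 for complex V, 0 passed (1 and 1 unadjusted with curcumin, 0 and 2 with both). Among the nuclear genes outside the name rule, the complex I acyl carrier NDUFAB1 had 0.25 with curcumin and 0.18 with both, COX4I1 0.08 and 0.08, the ATP synthase inhibitor ATP5IF1 0.09 and -0.06, and cytochrome c (CYCS) 0.03 and 0.13, and 0 of 5 passed (1 and 0 unadjusted).

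The enzymes that pass electrons to coenzyme Q outside complexes I and II included ETFA, the only called gene of the pathway lists counted here, where 264 and 194 genes were called over all genes kept. It encodes a subunit of the electron transfer flavoprotein, which takes electrons from fatty acid oxidation. It had 186, 196 and 174 TPM in the palmitate group, 235, 256 and 236 TPM with curcumin and 253, 238 and 245 TPM with curcumin and CuCl2, with no overlap. It rose by 0.38 (SE 0.07, limma adjusted p = 0.0258) and 0.40 (SE 0.07, limma adjusted p = 0.0212) on the log2 scale. Across 19 alternatives these adjusted p-values ran from 0.00224 to 0.146 and from 0.00208 to 0.122, above 0.05 in 10 and 6, among them leaving out replicate 1 of the palmitate group (0.0617 and 0.0543). The partner subunit ETFB and the quinone reductase ETFDH, which completes the same route, had 0.44 and 0.49 with curcumin and 0.32 and 0.49 with both, without passing (limma adjusted p from 0.0837 to 0.24). SQOR, the sulfide quinone oxidoreductase, had 0.42 and 0.36 (limma adjusted p = 0.0643 and 0.109), and DHODH, of pyrimidine synthesis, -0.24 and -0.36. Of the 6 genes kept, 1 rose in each comparison, and the medians were 0.40 and 0.34.

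Of 12 regulators of mitochondrial biogenesis that were kept, 0 passed in limma in either comparison with the palmitate group, with medians of -0.10 and -0.06. In each, 1 had an unadjusted p under 0.05 (14% and 13.5% of all genes kept). The coactivator PPARGC1A was low, at 9.07, 8.38 and 5.30 TPM in the palmitate group, 5.99, 9.15 and 5.80 TPM with curcumin and 5.71, 6.38 and 5.44 TPM with both, in overlapping groups. Among the factors whose motifs were counted, curcumin estimates were 0.02 (NRF1), 0.11 (GABPA), -0.14 (YY1) and 0.27 (ESRRA, the estrogen-related receptor alpha, from 36.5 ± 2.59 to 44.1 ± 3.21 TPM, limma adjusted p = 0.178). No value for the NRF2 gene is given here.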

How the data were processed

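Messenger RNA was sequenced in 9 libraries, 3 per treatment, and the authors deposited 1 table of TPM values for 62703 genes, which was the only measurement used. Per the submitters' processing notes, the tools were HISAT2 2.1.0 and RSEM 1.3.3 and the build GRCh38.p13, with no roles given. The annotation release is not given in the sources used here. Columns were assigned to samples by their names. The gene set, the lists and the tests were chosen with earlier results of these data known.

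A mean of 1 TPM or more was required (13443 genes). Values were taken as log2(TPM + 1), on which fold changes of low genes are understated. All 9 libraries entered 1 model per gene in limma 3.58.1 (R 4.3.3), with a trended variance, two-sided tests and Benjamini-Hochberg adjustment over all genes kept, at 0.05. The fit was tested on simulated data with independent noise and planted changes larger than those of the subunit genes. That test does not bear on changes as small as these or on shifts shared within a library. Depth is unknown from TPM, so no counting interval is given. Genes named are those past the threshold, the highest, the lowest and the largest fold changes of each complex, and subunits listed by role. The text prints a part of them, and 1 gene that is part of the counts and sums is not reported here. Coordinates are GENCODE 29 on GRCh38, and promoters are RefSeq on GRCh38.p14. Sums and counts were made in Python 3.11.15, plots in matplotlib 3.10.9. Alternatives were pseudocounts of 0.1 and 5, no filter, a minimum of 5 TPM, median-of-ratios scaling, no mitochondrial genes, mitochondrial share as a covariate, a replicate block, a fit of only the 2 groups compared, an untrended variance and each library left out.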

Additional observations from a re-analysis of the deposited data

How the results depend on the processing

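The sign of the median fold change of the 83 genes was positive under all 19 alternatives in both comparisons with the palmitate group (0.07 to 0.18 for curcumin, 0.07 to 0.19 for curcumin with CuCl2) and ran from -0.05 to 0.01 between the treated groups. The count of called genes did not hold. For curcumin, 1 gene became 0 with a pseudocount of 0.1, no filter, median-of-ratios scaling, mitochondrial genes left out, only the 2 groups compared or no variance trend, and 15 with mitochondrial share as a covariate. It ran from 0 to 9 when each library was left out. For curcumin with CuCl2, 0 became 16 with the covariate and ran from 0 to 5 when each library was left out. The shares of all genes called in the fits with a library left out are not given here. With replicate number as a block, 0 genes were called for curcumin. Same-numbered libraries had deviations from their group means that correlated between -0.27 and 0.25. For libraries with different numbers these correlations ran from -0.38 to 0.26. These values do not settle whether a shared number marks a shared culture or day. Between the treated groups the count stayed 0 in all alternatives.

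With mitochondrial genes left out and the rest scaled up, summed TPM for the palmitate group, curcumin, and curcumin with CuCl2 became 11690.4, 12774.5 and 12559 for complex I, 553, 591 and 583 for complex II, 2925, 3130.3 and 3129 for complex III, 4891, 5669.6 and 5628 for complex IV, and 9236, 9968 and 9869.7 for complex V. Under at least 1 alternative the sign turned for 24 of the 83 genes with curcumin (8 with mitochondrial share as a covariate), 29 with curcumin and CuCl2 and 50 between the treated groups, and 0 of these were called. Values follow for 4 of them. Over each library left out, COX7B with curcumin ran from -0.2256 to 0.0688 (0.0086 and 0.0621 without replicate 1 or 3 of the palmitate group, 0.0688 without replicate 2 of curcumin) and NDUFV2-AS1 from -0.3696 to 0.0459 (without replicate 3 of the palmitate group). With curcumin and CuCl2, NDUFA4L2 was 0.0174 under median-of-ratios scaling and ran from -0.1368 to 0.0855 over each library left out (0.0021 and 0.0855 without replicate 2 or 3 of the palmitate group, 0.0481 and 0.0427 without replicate 1 or 2 of its own group). UQCRHL ran from -0.9109 to 0.062 (0.062 without replicate 2 of the palmitate group, 0.0429 without replicate 1 of its own). The cause was not tested.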

Other observations

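Genes around the respiratory chain were also counted. Of 14 tricarboxylic acid cycle genes 0 passed in limma in either comparison with the palmitate group (0 at an unadjusted p under 0.05 with curcumin, 2 with curcumin and CuCl2), with medians of 0.00218 and -0.02. The isocitrate dehydrogenase gene IDH3A had 0.20 and 0.29, and the succinyl-CoA ligase gene SUCLG2 -0.16 and -0.29. Of 13 coenzyme Q synthesis genes 0 passed (2 and 1 unadjusted), with COQ3, a methyltransferase of that route, at 0.34 and 0.21. Of 17 genes for cristae, carriers and supercomplexes 0 passed (5 and 3 unadjusted, against 14% and 13.5% of all genes kept). The phosphate carrier gene SLC25A3, which supplies ATP synthase, had 742, 796 and 711 TPM in the palmitate group, 868, 962 and 837 TPM with curcumin and 818, 872 and 845 TPM with curcumin and CuCl2. Its treated libraries were all above the others, at log2 fold changes of 0.24 and 0.17 (limma adjusted p = 0.125 and 0.295). The ADP/ATP carrier gene SLC25A4 went the other way, with 33.4, 32.9 and 34.1 TPM in the palmitate group, 31.2, 25.6 and 27.0 TPM with curcumin and 29.2, 31.5 and 29.4 TPM with both, at -0.26 and -0.15 (limma adjusted p = 0.212 and 0.519). Its more abundant paralogue SLC25A5 had 0.18 and 0.18. Of 10 genes of the mitochondrial protein stress response 0 passed (1 unadjusted in each), and the chaperone gene HSPD1 had 0.02 and 0.06.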
